A study of Homo sapiens with 5 samples.

Results

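To describe how the chromatin of epithelial identity genes behaved under interferon, the H3K27ac signal was read at 10 genes of the epithelial keratin and junction programme, KRT8, KRT18, KRT19, KRT20, CDH1, EPCAM, CLDN4, CLDN7, VIL1 and CEACAM5. A peak was given to a gene when its centre lay within 10 kb of a GENCODE release 44 transcription start site or inside the gene body. This rule gave 21 distinct peaks of the 20087 in the table, and these belonged to 7 of the 10 genes. KRT20, VIL1 and CEACAM5 had 0 peaks. The members were chosen by name, with earlier results of these data known.

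Keratins are intermediate filament proteins that epithelial cells build as pairs of a type II and a type I chain. KRT8 is the type II chain of simple epithelia, KRT18 is its main type I partner, and KRT19 and KRT20 are type I chains, the latter typical of differentiated intestinal epithelium. CDH1 encodes E-cadherin of the adherens junction, EPCAM an epithelial adhesion molecule, CLDN4 and CLDN7 claudins of the tight junction, VIL1 villin, an actin-bundling protein of the brush border, and CEACAM5 the carcinoembryonic antigen. Acetylation of lysine 27 on histone H3 (H3K27ac) marks active promoters and enhancers. IFN-β acts through STAT and IRF factors on antiviral genes, and the keratin and junction genes are not counted among its classical targets.

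The cells were HCT116, a human colorectal carcinoma line, in a derivative named HCT116 CMV-osTIR1 RAD21-mAC, which carries the plant auxin receptor osTIR1 under a CMV promoter and a tagged cohesin subunit RAD21. Every library carried these alleles, and all cells were kept in 0.1% DMSO for 6 h. There were 2 H3K27ac libraries after 1000 unit/ml IFN-β for 1 h, 2 control libraries with no further treatment, and 1 input library without antibody. The titles place the control at the start of the IFN-β hour, so IFN-β and 1 h of further culture cannot be told apart. The labels do not say whether the libraries of a group came from separate cultures.

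The signal is given as the log2 of the mean normalised reads per library over a group, as the authors pooled it. The table holds no column for a single library, so no spread between replicates, interval or value per library can be given. The results of the tests that came with the table were not used, and no difference below is accompanied by a test. A difference is always IFN-β minus control on the log2 scale. Depth was 5.5 to 8.6 M reads per library. Summed over all peaks, the normalised signal was 876825 reads in the control and 540427 with IFN-β, and the median difference of all peaks was -0.69, a ratio of 0.62. Differences at the members are therefore read against this median and not against 0, and a negative value by itself says nothing particular to a gene.

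The epithelial promoters differed in sequence composition, and the sequences that bear on the results are shown here. RefSeq promoters (GRCh38.p14, 250 bases before to 50 after a start, written from 5′ to 3′ on the strand of the gene) were found for 5 of the 10 members, KRT8, KRT20, CLDN4, CLDN7 and CEACAM5. KRT18, KRT19, CDH1, EPCAM and VIL1 had no entry. The promoters of CLDN7, which has 2 in the table, and of CLDN4, both with strong peaks, and of KRT20 and CEACAM5, which have none, are printed below, and capitals mark the motifs that were searched.
CLDN7 (chr17:7262429-7262728, minus strand): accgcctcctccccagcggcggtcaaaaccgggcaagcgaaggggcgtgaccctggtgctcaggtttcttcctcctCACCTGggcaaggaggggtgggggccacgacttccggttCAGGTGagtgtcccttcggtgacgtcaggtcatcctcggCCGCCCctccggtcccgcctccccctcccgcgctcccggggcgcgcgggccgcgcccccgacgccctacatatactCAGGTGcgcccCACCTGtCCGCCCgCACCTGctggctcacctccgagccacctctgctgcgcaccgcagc
CLDN7, second start (chr17:7263164-7263463, minus strand): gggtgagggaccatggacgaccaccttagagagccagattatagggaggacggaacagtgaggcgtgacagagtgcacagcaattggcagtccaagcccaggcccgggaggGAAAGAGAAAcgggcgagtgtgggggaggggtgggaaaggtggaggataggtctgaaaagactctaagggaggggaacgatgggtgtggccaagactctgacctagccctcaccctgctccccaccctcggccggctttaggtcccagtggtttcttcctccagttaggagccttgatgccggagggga
CLDN4 (chr7:73830746-73831045, plus strand): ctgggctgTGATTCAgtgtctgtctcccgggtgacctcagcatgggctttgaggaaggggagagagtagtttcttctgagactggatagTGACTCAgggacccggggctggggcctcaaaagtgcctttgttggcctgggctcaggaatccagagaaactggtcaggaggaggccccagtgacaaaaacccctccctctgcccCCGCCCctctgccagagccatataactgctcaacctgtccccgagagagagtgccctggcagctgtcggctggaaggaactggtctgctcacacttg
KRT20 (chr17:40885193-40885492, minus strand): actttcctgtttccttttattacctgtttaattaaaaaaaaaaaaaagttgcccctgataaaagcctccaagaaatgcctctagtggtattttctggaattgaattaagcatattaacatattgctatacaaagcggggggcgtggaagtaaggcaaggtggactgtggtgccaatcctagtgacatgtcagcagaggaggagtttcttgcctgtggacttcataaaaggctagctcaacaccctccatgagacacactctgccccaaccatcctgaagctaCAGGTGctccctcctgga
CEACAM5 (chr19:41708376-41708675, plus strand): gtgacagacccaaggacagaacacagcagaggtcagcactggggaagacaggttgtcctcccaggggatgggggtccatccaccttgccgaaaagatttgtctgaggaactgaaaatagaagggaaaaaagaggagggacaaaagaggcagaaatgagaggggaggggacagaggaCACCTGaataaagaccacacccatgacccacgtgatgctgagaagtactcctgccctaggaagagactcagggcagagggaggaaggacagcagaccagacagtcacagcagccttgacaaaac

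The motifs, searched on both strands, were the E-box CAGGTG bound by SNAI and ZEB repressors, the GC box GGGCGG, the AP-1 site TGANTCA, the grainyhead site AACCNGTT, the TATA box TATAAA and an ISRE core, the shared letters of interferon response elements, written here as GAAA, 2 free bases and GAAA. Matches of these motifs do not overlap one another in the promoters printed. The first CLDN7 promoter had 71.7% GC, 30 CpG dinucleotides, 5 E-boxes and 2 GC boxes. The second, 771 bp from the nearest peak, had 60% GC, 10 CpG and 1 ISRE core, with no E-box or GC box. The CLDN4 promoter had 59.0% GC, 5 CpG, 2 AP-1 sites and 1 GC box. The KRT8 promoter (chr12:52926420-52926719, minus strand), which is not printed, had 50.7% GC, 2 CpG and none of the motifs. It lies 1015 bp from the nearest peak, so a member with strong peaks also had a promoter of low GC content. KRT20 had 44% GC with 2 CpG and 1 E-box, and CEACAM5 had 53.3% GC with 2 CpG and 1 E-box. The median was 58.7% GC over the 35116 promoters of the RefSeq table. The E-box was in 20.6% of those promoters, the GC box in 45.0%, the AP-1 site in 7.71% and the ISRE core in 3.57%. A match is a string of letters and not a bound site.

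Most peaks of the members had more H3K27ac in unstimulated cells than the median peak, but all 4 peaks of CDH1 had less. Over their 21 peaks the control log2 signal ran from 3.77 to 7.10 with a median of 5.97, against a median of 5.04 for all peaks. Of the 21 peaks, 14 lay above the median of the whole table and 6 lay in the highest decile of control signal, which begins at 6.54. After IFN-β the 21 peaks ran from 3.12 to 6.5, with a median of 5.25. The weakest of these values corresponds to 8.69 normalised reads per library, well above the floor of the table, which is 0.889 reads in the control and 0.664 with IFN-β.

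As a set, the members had differences close to those of the whole table. Their median difference was -0.72, against -0.69 for all 20087 peaks, and 12 of the 21 peaks lay below the table's median and 9 above it. With IFN-β, 20 of the 21 peaks had a lower value than in the control. Only 1 of the 21 peaks had a difference above 0, as did 5.93% of all peaks, and 1 had a difference below -1, as did 17.4% of all peaks. The quartiles of the members, -0.85 and -0.50, lay inside those of all peaks, -0.92 and -0.43.

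**Figure D1:**
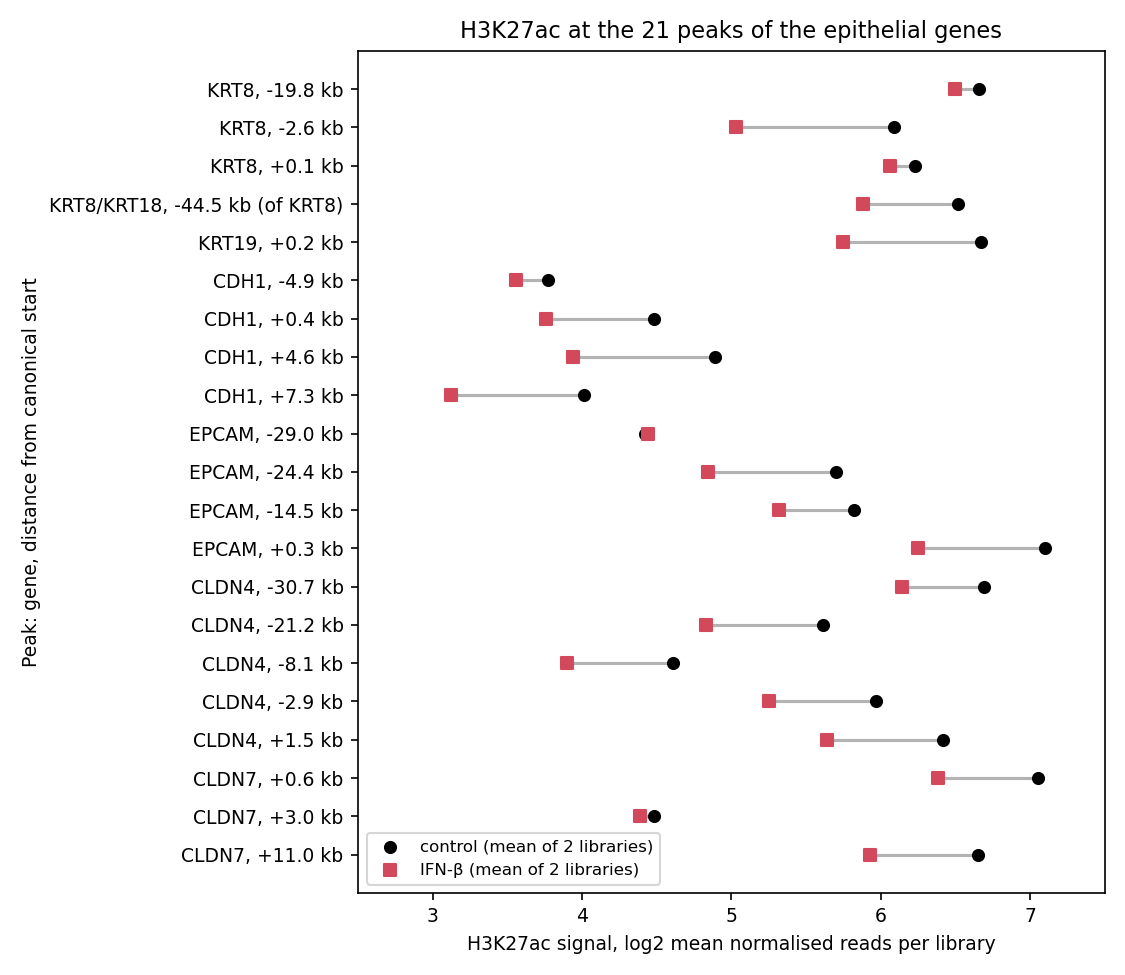
H3K27ac signal (log2 mean normalised reads per library) at each of the 21 peaks, named by gene and by distance from the canonical transcription start site. Black circles are the control mean and red squares the IFN-β mean, each over 2 libraries and without error bars because no library values are in the table. The IFN-β mark lies to the left in 20 of 21 peaks, and the differences nearest to 0 are 0.02 (EPCAM), -0.09 (CLDN7), -0.16 and -0.17 (KRT8) and -0.21 (CDH1).

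Among the keratins, the 4 peaks of the KRT8 locus differed widely from one another. KRT8 (chromosome 12, 52897187 to 52949954, minus strand) had 4 peaks, and its gene body reaches the KRT18 promoter because some annotated KRT8 transcripts start there. The peak over the canonical KRT8 start (52903976 to 52905969, centred in exon 1) had a log2 signal of 6.23 in the control and 6.06 with IFN-β, a difference of -0.17. Distances are signed, with negative values upstream. The peak at -19829 bp from that start (52924405 to 52925405), which is 1564 bp from an alternative KRT8 start, had 6.66 and 6.5, a difference of -0.16. In normalised reads per library these were 75.1 against 66.7 and 101 against 90.5, and the differences were 0.52 and 0.53 above the median of the table. Between them, the peak at -2578 bp (52907154 to 52908154), close to another alternative KRT8 start, had 6.09 in the control and 5.03 with IFN-β, a difference of -1.06, or 68.1 against 32.7 normalised reads. This was the lowest difference of the 21 peaks, so the highest and lowest values within KRT8 were 0.90 apart, beside 0.88 within EPCAM.

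The contrast within KRT8 was set against all peaks of like strength. The canonical start peak stood at the 98.5th percentile of differences in its decile of control signal, and the upstream peak at the 99.6th percentile in the highest decile, whose 10th and 90th percentiles are -1.06 and -0.55. Within their deciles of GC content they stood at the 95.1st and 83.9th percentiles. The peak with the difference of -1.06 stood at the 10.9th percentile of its decile of signal. The KRT8 peaks were singled out for their differences, so places near the ends of the spread follow in part from that pick. The canonical start peak is also 1993 bp wide, against a median width of 1000 bp over all peaks. These percentiles describe the spread over peaks, and whether the KRT8 peaks differ from one another beyond the replicates could not be tested with group means.

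The central 300 bases of both extreme KRT8 peaks (GRCh38, minus strand, as the gene runs) are shown because they are the ends of this contrast. They hold no capitals, since none of the searched motifs occurs in them.
KRT8 peak with a difference of -1.06 (chr12:52907505-52907804, minus strand): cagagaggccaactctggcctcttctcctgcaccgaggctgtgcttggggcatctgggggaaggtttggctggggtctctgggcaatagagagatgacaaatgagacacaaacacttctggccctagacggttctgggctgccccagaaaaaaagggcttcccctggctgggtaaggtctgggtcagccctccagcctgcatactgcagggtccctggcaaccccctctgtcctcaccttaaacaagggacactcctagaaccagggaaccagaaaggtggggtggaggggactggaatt
KRT8 peak with a difference of -0.16 (chr12:52924756-52925055, minus strand): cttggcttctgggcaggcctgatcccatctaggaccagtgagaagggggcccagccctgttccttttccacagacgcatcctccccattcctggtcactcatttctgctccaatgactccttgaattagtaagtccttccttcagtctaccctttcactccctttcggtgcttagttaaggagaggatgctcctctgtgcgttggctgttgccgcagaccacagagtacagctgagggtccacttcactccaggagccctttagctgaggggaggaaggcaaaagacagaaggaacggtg

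The first stretch has 58.0% GC and the second 54.3%. Over the 1000 bp around their centres, the peak with -1.06 held none of the motifs and the peak with -0.16 held 1 AP-1 site. The canonical start peak held 3 GC boxes, 2 E-boxes and 2 TATA boxes.

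KRT18 (chromosome 12, 52948871 to 52952906, plus strand) had a single peak, at 52949058 to 52950058, which it shares with KRT8. Its centre lies 440 bp inside the canonical KRT18 start, and its log2 signal was 6.52 in the control and 5.88 with IFN-β, a difference of -0.64. KRT19 (chromosome 17, 41523617 to 41528308, minus strand) also had 1 peak, centred 193 bp inside its start in exon 1 (41527615 to 41528615), with 6.67 in the control and 5.75 with IFN-β. Its difference of -0.92 was lower than that of KRT18 and of the KRT8 start peak, and stood at the 29.1st percentile of its decile of signal. The KRT19 peak is also within 10 kb of a start of KRT15, a neighbouring type I keratin of stratified epithelia, but is centred 5586 bp from it.

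KRT20 (chromosome 17, 40875889 to 40885242) had no peak by the rule. The nearest was centred 16585 bp from its start (40901327 to 40902327) and had a control log2 signal of 3.74, and 11 peaks lay within 100 kb of the gene. Other peaks thus surround KRT20, and none was called at its own promoter.

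At the adherens junction, CDH1 (chromosome 16, 68737292 to 68835537, plus strand) had the lowest signal of the 7 members with peaks. The promoter peak, centred 401 bp inside the start in intron 1 (68737193 to 68738193), had a log2 signal of 4.48 in the control and 3.76 with IFN-β, at the 35.5th percentile of control signal over all peaks. Of the 4 CDH1 peaks, that in intron 2 at 4551 bp from the start (68741343 to 68742343) was the strongest, with 4.89 and 3.94 and a difference of -0.95. Another intron 2 peak at 7273 bp (68744065 to 68745065) had 4.01 and 3.12, a difference of -0.89. The peak 4915 bp upstream (68731877 to 68732877) had 3.77 and 3.56, a difference of -0.21. The intron 2 peaks were thus lower than the table median and the upstream peak higher, and at these levels, from 8.69 to 29.7 normalised reads, the differences of single peaks scatter widely, as the deciles of low signal show. The CDH1 promoter peak held 4 E-boxes, as did the EPCAM peak upstream of its first start and a CLDN4 peak, the highest number in any of the 21 peaks. The intron 2 peaks held 1 and 2 grainyhead sites.

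EPCAM (chromosome 2, 47345158 to 47387601, plus strand) had the strongest single peak of the set. That peak, 310 bp inside the canonical start in intron 1 (47369121 to 47370121), had a log2 signal of 7.10 in the control and 6.25 with IFN-β, or 137 and 76.1 normalised reads per library, and stood at the 97.3rd percentile of control signal. Its difference of -0.85 was near the median of -0.82 for its decile of signal. A peak at the first, non-canonical start (47344415 to 47345415) had 5.70 and 4.84, a difference of -0.86, and lies beside the divergent lncRNA EPCAM-DT. The wide peak at -14463 bp from the canonical start (47354053 to 47355644) had 5.82 and 5.32, a difference of -0.50. The peak 4858 bp upstream of the first start (47339800 to 47340800) had 4.42 and 4.44, and with 0.02 it was the single member peak above 0. This value amounts to 21.4 against 21.7 normalised reads, and the difference is 0.71 above the median difference of the table.

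Of the tight junction genes, CLDN4 had even differences and CLDN7 did not. CLDN4 (chromosome 7, 73799542 to 73832690, plus strand) had 5 peaks, and their differences were 0.23 apart. In the exon of its canonical transcript the peak 1490 bp past the start (73831986 to 73832986) had a log2 signal of 6.42 in the control and 5.64 with IFN-β, a difference of -0.78. The peak at -2934 bp (73827562 to 73828562), beside an alternative CLDN4 start, had 5.97 and 5.25. The peaks at -8111 bp (73822385 to 73823385) and -21212 bp (73809284 to 73810284) had 4.61 and 3.90, and 5.61 and 4.83. The farthest, at -30660 bp (73799836 to 73800836) and 794 bp inside the first annotated start, was the strongest, with 6.69 and 6.14, and its difference of -0.55 stood at the 89.3rd percentile of its decile of signal. The CLDN4 promoter printed above lies 941 bp from the nearest peak, so its AP-1 sites are between acetylated stretches and not within a called peak.

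CLDN7 (chromosome 17, 7259903 to 7263983, minus strand) had 3 peaks. Its promoter peak, centred 585 bp inside the canonical start in exon 1 (7261393 to 7262393), had a log2 signal of 7.05 in the control and 6.38 with IFN-β, a difference of -0.67, at the 96.9th percentile of control signal. It lies 36 bp from the E-box-rich promoter printed above, and the coding start closest to its centre, at 196 bp, belongs to the overlapping gene ENSG00000262302. The peak 2966 bp downstream of the canonical start (7259012 to 7260012) had 4.48 and 4.39, a difference of -0.09. This weak peak, with 22.3 normalised reads in the control, sets the uneven range of CLDN7. It stood at the 90.2nd percentile of its decile of signal, whose 10th and 90th percentiles are -1.2 and -0.11. The third (7251027 to 7252027), with 6.65 and 5.93, is centred 111 bp from a start of ELP5, an Elongator subunit, and belongs to CLDN7 only through the 10 kb window. Reads at this compact locus cannot be divided between CLDN7 and its neighbours ELP5 and CTDNEP1.

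The villin gene VIL1 and the carcinoembryonic antigen gene CEACAM5 were without called acetylation. For VIL1 (chromosome 2, 218419121 to 218453295) the nearest peak was centred 12685 bp from the start (218405607 to 218407265), with a control log2 signal of 4.97 and a difference of -0.27, and the coding start closest to it was that of CTDSP1. CEACAM5 (chromosome 19, 41708585 to 41730433) had 0 peaks within 100 kb, and its nearest peak, close to the start of the ribosomal protein gene RPS19, was centred 149448 bp from its start. CEACAM1, CEACAM6 and CEACAM7 of the same family also had 0 peaks by the rule. A gene without a peak has no signal value in the table, so no level can be given for KRT20, VIL1 or CEACAM5, and no acetylation was called there at this depth.

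**Figure D2:**
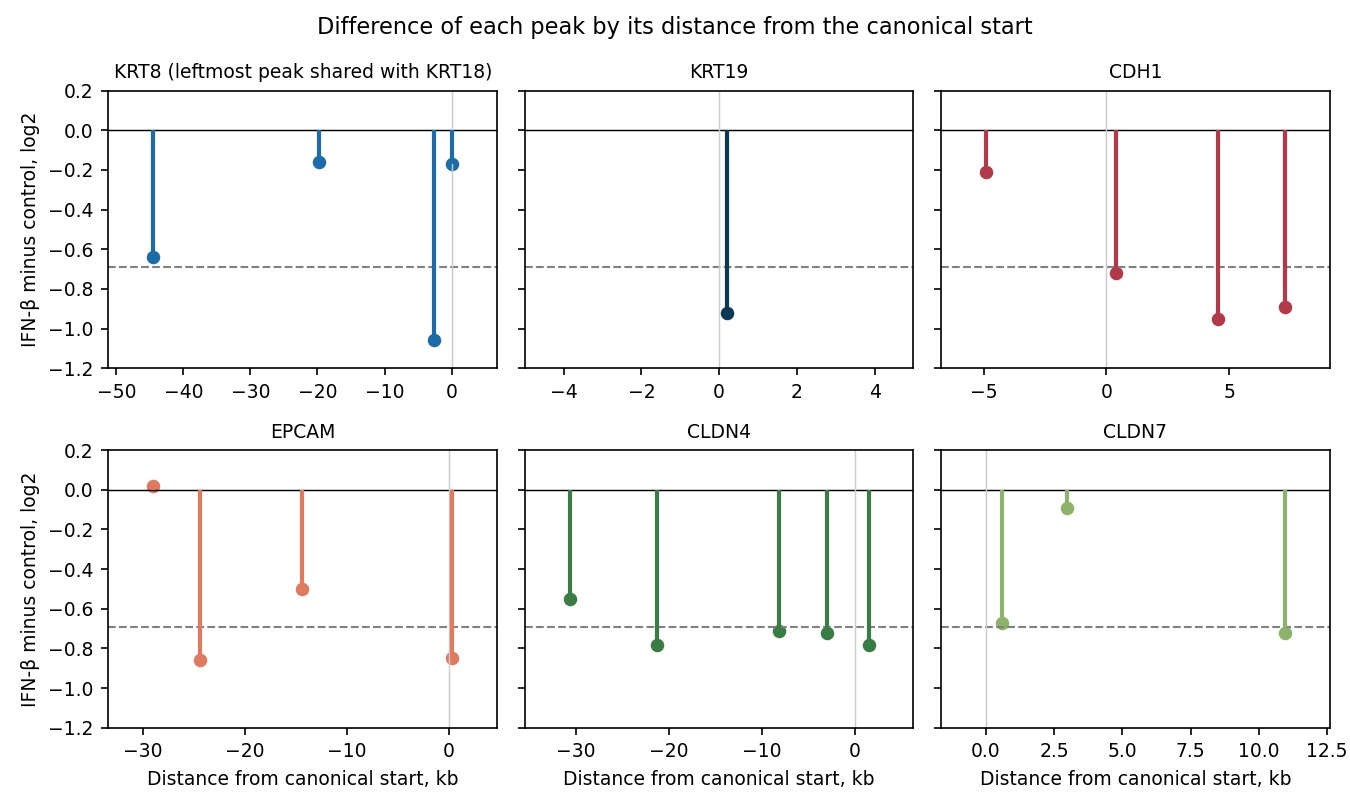
Difference of log2 signal (IFN-β minus control) of each peak against its distance in kb from the canonical start, with negative distances upstream. Each gene with a peak has a panel, except KRT18. Its only peak, shared with KRT8, is in the KRT8 panel at -44482 bp from the canonical KRT8 start. The dashed line is the median of all peaks, -0.69. The CLDN4 peaks sit between -0.78 and -0.55, while the KRT8 peaks spread from -1.06 to -0.16.

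Peaks near starts and peaks away from them had median differences close to those of their classes. The 11 member peaks within 1 kb of a protein-coding start had a median difference of -0.72 and a median control log2 signal of 6.52, and the 11334 such peaks in the table had -0.75 and 5.52. The other 10 member peaks had a median difference of -0.60 and a control signal of 4.75, and the remaining 8753 peaks of the table had -0.57 and 4.31. The members' median GC content was 62.6% near starts and 48.5% elsewhere, against 64.2% and 47.0% for all peaks. Their CpG observed-to-expected ratio near starts was lower, with a median of 0.492 against 0.782. CpG density was not used by the rule, and no test was made of it.

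Motif content was counted over 1000 bp around each centre, for the 21 member peaks and the 20055 peaks on named chromosomes. The E-box was found in 16 of the 21 (76.2%) and in 57.7% of all, and the GC box in 17 (81.0%) and 67.3%. The AP-1 site was found in 9 (42.9%) and 33.4%, the grainyhead site in 4 (19.0%) and 5.80%, and the TATA box in 6 (28.6%) and 28.5%. None of the 21 member peaks held the ISRE core, which was in 11.6% of all peaks, while the second CLDN7 promoter, outside the peaks, held 1. With 21 peaks, several of them from the same gene, these shares are a description.

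**Figure D3:**
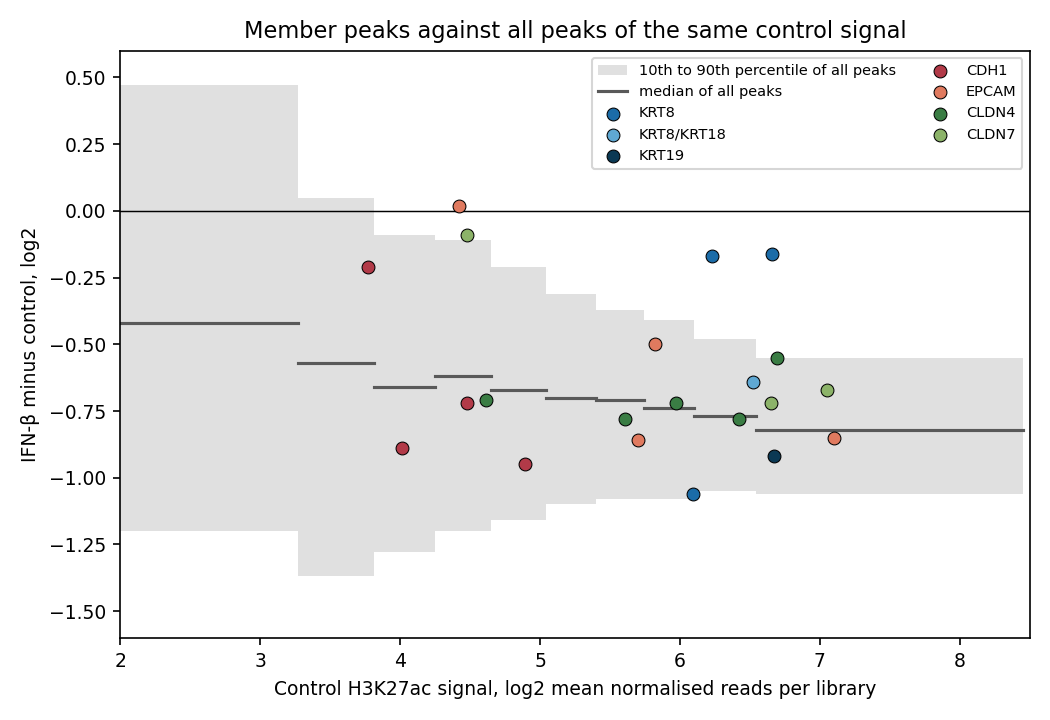
Difference of log2 signal (IFN-β minus control) of the member peaks against their control log2 signal. Grey bands span the 10th to 90th percentile of all peaks in each decile of control signal (the lowest band continues left of the plotted range) and dark bars mark their median. Of the 21 peaks, 4 lie above the band of their decile, from KRT8, EPCAM and CLDN7, and 0 lie below it.

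Summed over all its peaks, each gene gave 1 value per group. In the control the sums, in normalised reads per library, were 336 for KRT8, 325 for CLDN4, 267 for EPCAM, 255 for CLDN7, 102 for KRT19, 91.8 for KRT18 and 81.7 for CDH1. With IFN-β they were 249, 202, 166, 165, 53.8, 58.9 and 49.4 in the same order of genes. KRT8, CLDN4, EPCAM and CLDN7 exceeded the sums of 96.6% to 98.7% of the 13341 protein-coding genes with a peak, and they also had 3 to 5 peaks each, whereas KRT18 and KRT19 had 1. The KRT8 sum includes the peak shared with KRT18, which is the whole KRT18 sum of 91.8. The CLDN7 sum includes 100 reads from the peak at the ELP5 start and 133 from the peak closest to a start of ENSG00000262302. Since no spread is known, neighbours in this order cannot be said to differ.

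On the log2 scale the summed differences were -0.43 for KRT8, -0.63 for CLDN7, -0.64 for KRT18, -0.68 for EPCAM, -0.69 for CLDN4, -0.73 for CDH1 and -0.92 for KRT19. Their median was -0.68, against -0.74 over all protein-coding genes with a peak. None of the 7 was above 0, as were 2.13% of all such genes, and none was below -1, as were 15.3%. KRT8 stood highest, at the 86.4th percentile of all genes, and KRT19 lowest, at the 24.0th. The KRT8 value depends on the choice of peaks, with -0.16 from its strongest peak alone and -0.57 from the peaks within 1 kb of a start. The CLDN7 value was -0.09 when the peaks nearer to a start of another coding gene were left out.

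The members were then set beside other genes of the same structures. Of 14 other keratin genes, 7 had a peak, 3 of them within 1 kb of an own start, and the median summed difference was -0.60. The strongest peaks were that of KRT15, which is the KRT19 peak described above, and that of KRT10, a keratin of stratified epidermis, with log2 signals of 5.92 and 5.32. Of 16 adherens junction and desmosome genes 15 had a peak, and their median summed difference was -0.75, with 0 above 0 and 2 below -1. The strongest belonged to CTNNA1, the α-catenin that links cadherins to actin, with 7.17 and 6.47, and to PKP3, a desmosomal plakophilin, with 6.98 and 6.25. Of 15 tight junction genes 14 had a peak, with a median of -0.78, and 1 was above 0 and 2 below -1. The scaffold gene TJP1 had a strongest peak of 6.78 in the control and 5.84 with IFN-β.

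In the tight junction list, the strongest peak of CLDN2, a pore-forming claudin, had 3.85 in the control and 4.01 with IFN-β, a difference of 0.16, and that of cingulin (CGN) had 4.52 and 4.53. Of 13 brush border and cell surface genes 8 had a peak, with a median summed difference of -0.42. Ezrin (EZR), the membrane-to-actin linker, led with 7.0 and 6.17, followed by CDHR2, a microvillar protocadherin, with 6.79 and 5.55, although the CDHR2 peak is closest to the start of RNF44. In this list CDHR5 was above 0, with 5.59 in the control and 6.31 with IFN-β, a difference of 0.72. The centre of that peak lies 1 bp from a start of IRF7, an interferon-induced regulatory factor, and 5486 bp from the nearest CDHR5 start. Of 14 epithelial transcription factor genes 10 had a peak, with a median of -0.76, led by OVOL2, whose peak at 7.63 and 6.52 is 3 bp from a start of SNX5, and by GRHL2 with 7.13 and 6.27.

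Markers of other cell types were read beside the members, and the label of the line was not tested by them. Of 10 mesenchymal genes 5 had a peak, with a median control log2 signal of 3.82 over 8 peaks. The strongest were ZEB1 with 5.93 in the control and 5.02 with IFN-β, and COL1A1 with 5.24 and 4.88. The peaks at the starts of SNAI1, TWIST1 and VIM had control signals of 4.53, 3.54 and 2.66, and CDH2, ZEB2, SNAI2, FN1 and SPARC had no peak. Of 6 blood and endothelial genes 4 had a peak by the rule and 0 had one within 1 kb of an own start. The peak assigned to CD14 (5.19 and 4.37) was nearest to the start of TMCO6, and that of CDH5 had 2.44 and 3.0. A peak within 1 kb of an own start was found for 7 of the 10 members (70.0%), for 5 of the 10 mesenchymal genes and for 58.5% of all protein-coding genes, and H3K27ac by itself does not give transcript levels.

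The interferon-stimulated genes show the size of differences that the same table holds elsewhere. Of 11 such genes 10 had a peak, 8 of these had a summed difference above 0 and 0 were below -1, with a median of 0.34. The summed difference was 1.94 for IFI6, 1.59 for IFIT1, 1.29 for IRF9, 0.78 for MX1, 0.46 for STAT2 and 0.05 for IFIT3. ISG15, which had the strongest control peak of the list, had -0.53 at that peak, and another ISG15 peak, 232 bp from a start, had 5.28 in the control and 6.58 with IFN-β, a difference of 1.30. The highest member gene value, -0.43 for KRT8, was below the lowest of these 10, -0.12. This order holds for sums over all assigned peaks and not for single peaks: the strongest KRT8 peak had -0.16 and the strongest ISG15 peak -0.53. CLDN7 had -0.09 from its single peak to which no other coding gene's start is nearer, which is not its promoter peak. This list was drawn up with results of these data known, so the separation is a description.

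**Figure D4:**
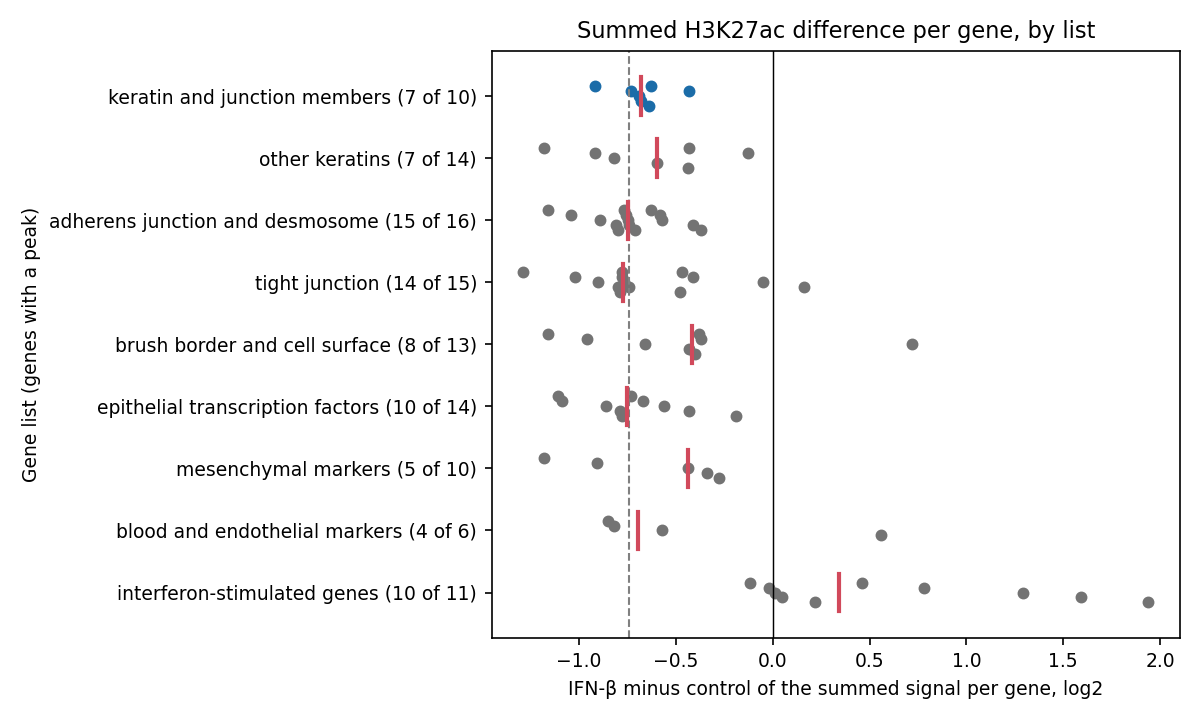
Summed H3K27ac difference per gene (IFN-β minus control, log2), with a dot per gene that has a peak, a red bar at each list's median and a dashed line at the median of all protein-coding genes, -0.74. The 7 members lie between -0.92 and -0.43, and the interferon-stimulated genes lie between -0.12 and 1.94.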

How the data were processed

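H3K27ac ChIP-seq was measured in HCT116 cells after IFN-β and in unstimulated cells. Per the labels and the study's methods, the authors trimmed reads with fastp 0.19.3 and used Bowtie2 on GRCh38, MACS2 for peak calling against the input, and DiffBind for counting and normalisation. The deposited log2 columns hold, for every peak, a mean of normalised reads (1 column for all H3K27ac libraries, 1 for each group). The 2 libraries of a group are pooled in them, so the precision of a value is unknown. An offset common to all peaks cannot be told apart from the scaling of the libraries. Columns with the authors' fold change, p-value and adjusted p-value were not used.

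From the log2 columns, the difference between groups, percentiles over all 20087 peaks and sums of linear signal per gene were computed in Python 3.11.15 with pandas 2.3.3. Starts and gene bodies came from GENCODE release 44, and sequences were read with pysam 0.24.0 from the GRCh38 reference, which shares 24 sequence names with the table. The 32 peaks on other names were left out of the sequence counts. Coordinates are as deposited. Assignment and sums were tested on simulated data.

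Members and gene lists were chosen with earlier results of these data known. Named are all 10 members, the 2 genes with the strongest control peak of each list, and genes whose strongest peak had a difference above 0, along with neighbours that share a peak. Some genes that this rule names are not reported here. Some further listed genes are named for their values or for having no peak, and were chosen after their values were seen. Alternatives changed the window, the transcripts, the peaks kept, the pseudocount, the centring and a filter on low signal.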

Additional observations from a re-analysis of the deposited data

How the results depend on the processing

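No paired analysis was possible because the table holds group means and no value per library, and for the same reason no replicate could be left out. A value was taken as moved when it shifted by more than 0.1 on the log2 scale. The median summed difference of the 7 genes and the median difference of the 21 peaks relative to all peaks moved under none of the 14 settings tried, and stayed between -0.73 and -0.67 and between -0.03 and 0.02. After centring on the median of all peaks, 9 member peaks were above 0 in place of 1, as were 49.1% of all peaks, and 0 were below -1 in place of 1, as were 1.37% of all peaks. Of the single-gene sums under an alternative, 9 moved, 46 did not and 0 reversed. They moved for KRT8, CDH1, EPCAM, CLDN4 and CLDN7, most for CLDN7 and for KRT8 (-0.16 from its strongest peak). The CLDN7 value was -0.09 without the peaks nearer to another coding gene's start, its promoter peak among them. KRT18 had no value with only the peaks nearest to it, since a KRT8 start lies nearer to their shared peak. The gene median under that setting therefore leaves KRT18 out. Leaving out wide peaks, the canonical transcript alone, leaving out the shared peak, and peaks nearest to any member were chosen after seeing the data.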

Other observations

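Among the lists compared with the members, peaks above 0 that are not the strongest of their gene were looked at after their values were seen. All 3 KLF5 peaks of this kind, in the gene of an intestinal crypt transcription factor, lie within 1790 bp of a KLF5 start. They had log2 signals of 3.65 in the control and 4.20 with IFN-β, 3.17 and 3.58, and 3.80 and 4.12, with differences of 0.55, 0.41 and 0.32, while the strongest KLF5 peak had 5.62 and 4.94. In TJP1, a tight junction scaffold gene, a peak 35007 bp from the nearest start had 3.53 and 4.62, a difference of 1.09. In EPS8, which encodes an actin-capping protein of microvilli, peaks 3122 bp and 2053 bp from a start had 3.56 and 4.31, and 4.60 and 4.79. A TJP3 peak had 2.72 and 3.18. Against peaks of like control signal, the TJP3 peak and the KLF5 peak with 0.41 lay below the 90th percentile of the lowest decile, 0.47. The TJP1 peak, the EPS8 peak with 3.56 and the other KLF5 peaks lay above that of the next decile, 0.05. The EPS8 peak with 4.60 lay above that of its decile, -0.11. Since the peaks were picked for a difference above 0, a place above a 90th percentile near or below 0 follows largely from that pick.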
